A study of Mus musculus with 16 samples.

Results

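The SLC25 family of mitochondrial carriers was examined in hearts with a cardiomyocyte-specific deletion of carnitine palmitoyltransferase 2 (CPT2), the inner membrane enzyme that hands long-chain acyl groups to beta-oxidation. Members were taken by symbol, as every gene listed under a name beginning with Slc25a except Slc25a20, the carnitine-acylcarnitine carrier. That rule gave 45 genes, of which 38 were among the 14138 genes of the first count table and all 45 among the 17831 named genes of the second. The first table set 5 CPT2H-KO hearts against 5 wild type hearts (genotype WT). The second set 3 hearts of the CPT2/USP30 double KO against 3 of the CPT2 single KO, which the labels also call CPT2H-KO, so the CPT2 deletion is carried by both of its groups. USP30 strips ubiquitin from proteins on the outer surface of mitochondria and so restrains mitophagy, and the study's USP30H-KO line was made with Myh6-Cre, a heart muscle driver, and a floxed Usp30. The sources used here do not give the driver of the CPT2 deletion, the alleles of the wild type hearts, or the age and sex of the mice. Each library is one heart sample of total RNA, from all the cells of the tissue.

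Carriers of this family share a fold of repeated membrane helices and sit, with few exceptions, in the inner mitochondrial membrane. Each moves a set of metabolites that could not otherwise cross: ADP against ATP, phosphate, the amino acids and ketoacids of the malate-aspartate shuttle, tricarboxylates, nucleotides, cofactors, iron or glutathione. In heart muscle the ADP/ATP and phosphate carriers feed the ATP synthase and export its product, and the malate-aspartate shuttle carries cytosolic reducing equivalents into the mitochondrion.

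Library totals were 54674422 to 131049342 counts in CPT2H-KO hearts and 55905339 to 132762776 in wild type hearts, and 11779115 to 12734379 in double KO hearts and 11067969 to 13532716 in single KO hearts. Mitochondrially encoded transcripts took 61.9 to 68.8% of counts in CPT2H-KO hearts and 57.9 to 63.0% in wild type hearts. Cpt2 was at 30.4 to 44.9 CPM (read counts per 1000000 counts of the scaled library) in CPT2H-KO hearts and at 53.0 to 89.9 CPM in wild type hearts, with no overlap. Usp30 was at 7.45 to 10.4 CPM in double KO hearts and at 18.5 to 22.8 CPM in single KO hearts, again with no overlap. All 10 cardiomyocyte markers were detected in both tables. The atrial light chain transcript Myl7 was under 1 CPM in CPT2H-KO replicates 2, 3 and 4, at 14.1 and 144 CPM in CPT2H-KO replicates 1 and 5, and at 25.4 to 194 CPM in wild type hearts. In the second table it was at 1.49, 102 and 425 CPM in double KO hearts and below 0.5 CPM in single KO hearts. Y-linked transcripts were at background in CPT2H-KO replicates 1 and 3, wild type replicate 1, all 3 double KO hearts and single KO replicate 3.

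Levels of different carriers were compared per length, as CPM per kb of merged exons. Slc25a4, the ADP/ATP carrier of heart and skeletal muscle (ANT1), was far above every other member, at 762 ± 47 CPM per kb in CPT2H-KO hearts and 876 ± 66.2 in wild type hearts (SD, n = 5 each). That was 69.3% ± 1.02 of the summed level of the 38 members in CPT2H-KO hearts and 71.5% ± 0.69 in wild type hearts. In CPT2H-KO hearts Slc25a5, the second ADP/ATP carrier (ANT2), followed at 86.5 ± 11.7 CPM per kb, then the phosphate carrier Slc25a3 at 68.4 ± 4.62 and the oxoglutarate/malate carrier Slc25a11 at 59.5 ± 4.84. In wild type hearts Slc25a11 came next to Slc25a4, at 79.8 ± 6.87 CPM per kb, followed by Slc25a3 at 75.3 ± 4.07 and Slc25a5 at 67.0 ± 4.38. In wild type hearts the means of Slc25a11 and Slc25a3 differed by less than the SD of Slc25a11 but by more than that of Slc25a3, while the other neighbours among these levels differed by more than either SD. With the length of the longest coding transcript in place of merged exons, a choice made after the data were seen, Slc25a3 came next to Slc25a4 in both groups (235 CPM per kb in CPT2H-KO hearts and 259 in wild type hearts). Slc25a34, a carrier of unassigned substrate, Slc25a13, Slc25a39 and Slc25a12 completed the 8 highest members in both groups. The 5 highest members made up 90% of the summed level in each group.

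**Figure D1:**
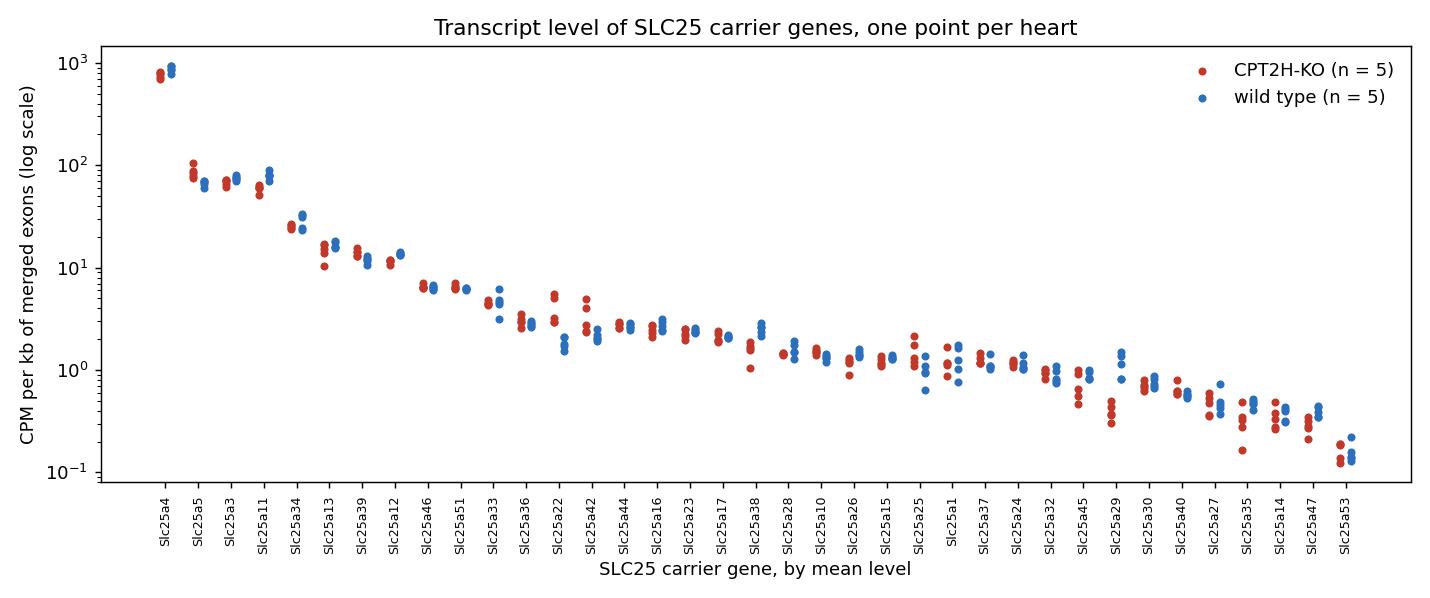
Level of 37 of the 38 carriers listed in the first table, as CPM per kb of merged exons on a log axis, with a point for each heart (CPT2H-KO left of wild type, n = 5 each) and genes ordered by their mean over all 10 hearts. Slc25a4 stands alone at the top, at 762 CPM per kb in CPT2H-KO hearts and 876 in wild type hearts, and the lowest member, Slc25a53, averages 0.161 over all hearts.

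At the other end, 7 members are listed in the second table but not in the first, and each had 12 counts or fewer in every library there. They were Slc25a2, Slc25a18, Slc25a21, Slc25a31, Slc25a41, Slc25a43 and Slc25a48. Slc25a31, the ADP/ATP carrier known from testis, had 2, 2 and 1 counts in double KO hearts and 3, 6 and 0 counts in single KO hearts. Slc25a18, one of a pair of glutamate carriers, had 12, 7 and 1 counts in double KO hearts and 3, 8 and 3 counts in single KO hearts. At these counts no difference was detectable. Among the 38 of the first table the lowest levels were those of Slc25a14, Slc25a47 and Slc25a53.

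CPT2 loss was set against wild type to see which carriers changed with it. Of the 38 carriers, 10 passed the threshold (edgeR quasi-likelihood test, adjusted p under 0.05), 4 higher and 6 lower. Over all 14123 genes tested 33.7% were called, 16.7% higher and 17% lower, so a count of 10 among 38 (26.3%) is not above the background. The 4 carriers called higher in CPT2H-KO hearts were Slc25a22 (log2 fold change 1.09), Slc25a42 (0.63), Slc25a5 (0.37) and Slc25a39 (0.24, but -0.03 when scaled by library totals alone). The 6 called lower were Slc25a29 (-1.51), Slc25a38 (-0.69), Slc25a47 (-0.46), Slc25a11 (-0.42), Slc25a26 (-0.31) and Slc25a12 (-0.24). Groups did not overlap for 3 carriers that were higher and 6 that were lower, 23.7% of the family, against 24.7% of all genes. The median of the 38 was -0.09, against -0.01 for all genes tested, with 16 members above 0 and 22 below, where 49.1% of all genes were above and 50.9% below. The calls of Slc25a11, Slc25a22, Slc25a29 and Slc25a38 were kept in all 19 alternatives run, and those of the other members called were lost in at least 1. In whole hearts, fewer cells of a type and less RNA per cell cannot be told apart.

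**Figure D2:**
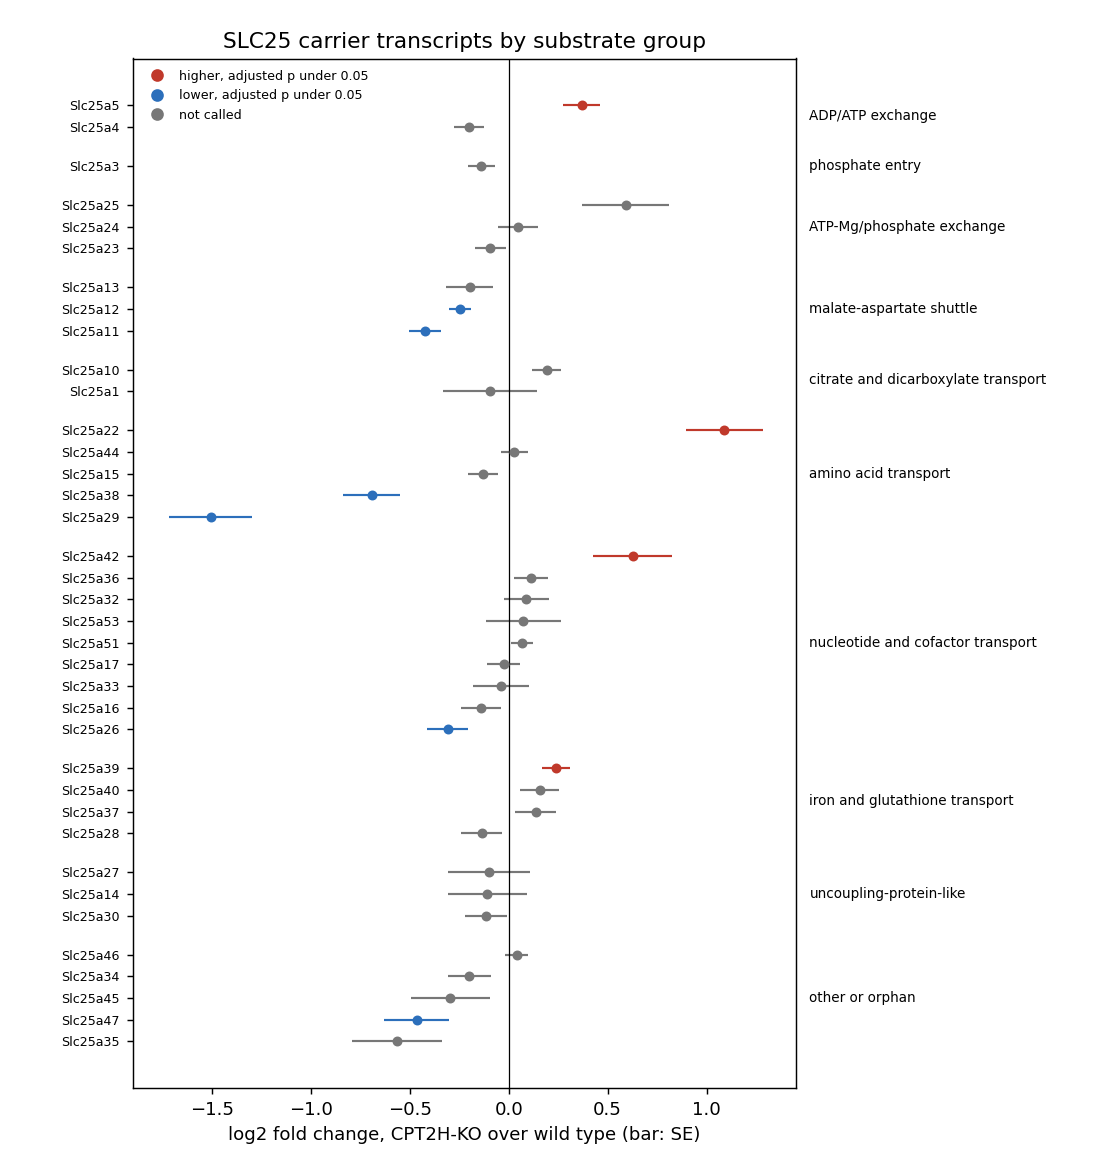
Log2 fold change of CPT2H-KO over wild type hearts for 37 of the 38 carriers, grouped by what they transport, with SE as bars. Red points passed the threshold as higher (4 carriers) and blue points as lower (6 carriers). When scaled by library totals alone Slc25a39 is at -0.03, where the median of all genes is -0.27. The groups for ADP/ATP exchange and amino acid transport hold genes on both sides of 0.

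The ADP/ATP carriers differed from each other in direction. Slc25a5, on the X chromosome (36795651 to 36798807, plus strand, GRCm38), is the isoform known for its role in dividing and non-muscle cells. It had 174, 144, 125, 131 and 139 CPM in CPT2H-KO hearts, against 116, 98.4, 109, 114 and 114 CPM in wild type hearts. Every CPT2H-KO heart was above every wild type heart, with replicate 1 highest. The log2 fold change of Slc25a5 was 0.37 (SE 0.09, adjusted p = 0.0111, n = 5 each), and scaling by library totals alone ended the call (0.10, adjusted p = 0.51) and moves the median of all genes to -0.27. With the sex term it was 0.35 (adjusted p = 0.0206). Slc25a4 (chromosome 8, 46206797 to 46211284, minus strand) had 1918, 1638, 1822, 1730 and 1861 CPM in CPT2H-KO hearts and 2203, 2058, 2207, 2006 and 1832 CPM in wild type hearts. Wild type replicate 5 lay within the CPT2H-KO range and the other 4 above it. Slc25a4 was not called (-0.20, SE 0.08, adjusted p = 0.0637), though it was in 5 of 19 alternatives, among them without CPT2H-KO replicate 1 (-0.23, adjusted p = 0.0398) and without wild type replicate 5 (-0.24, adjusted p = 0.0272).

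The ratio of read counts of Slc25a4 to Slc25a5 within a heart does not depend on scaling between libraries. It was 11.0, 11.4, 14.6, 13.2 and 13.4 in CPT2H-KO hearts, against 18.9, 20.9, 20.3, 17.7 and 16.01 in wild type hearts. All 5 CPT2H-KO hearts were below all wild type hearts, and the mean log2 difference was -0.56 (SD 0.17 in CPT2H-KO hearts and 0.16 in wild type hearts). An exact two-sided permutation test gave p = 0.00794, the smallest that 5 against 5 can give, and 0.0397 after Benjamini-Hochberg adjustment over the 10 pairs of carriers compared. That adjusted value passes only because the pair Slc25a15 and Slc25a29 shares the smallest p. The pairs were chosen with earlier results of these data known, so the adjusted value is not independent evidence. Slc25a4 had more reads than Slc25a5 in every heart of both groups.

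The phosphate carrier gene Slc25a3 was not called (-0.14, SE 0.07, adjusted p = 0.138). It had 398, 341, 403, 389 and 367 CPM in CPT2H-KO hearts and 446, 422, 428, 406 and 387 CPM in wild type hearts, and the ranges overlapped. Among the calcium-regulated ATP-Mg/phosphate carriers, Slc25a25 stood at 0.59 on the log2 scale (SE 0.22, adjusted p = 0.0569), Slc25a24 was at 4.01 ± 0.22 CPM in CPT2H-KO hearts and 3.89 ± 0.54 in wild type hearts, and Slc25a23 had a log2 fold change of -0.09. Slc25a25 ranged from 8.62 to 16.9 CPM in CPT2H-KO hearts and from 5.04 to 10.7 CPM in wild type hearts, and it passed the threshold in 5 of 19 alternatives, among them without CPT2H-KO replicate 2 (0.69, adjusted p = 0.0392) and without wild type replicate 5 (0.72, adjusted p = 0.0287). The within-heart ratio of Slc25a24 to Slc25a25 was lower in 4 of 5 CPT2H-KO hearts than in any wild type heart, but did not pass after adjustment (log2 difference -0.53, exact permutation p = 0.0317, adjusted p = 0.0794).

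The 3 carriers of the malate-aspartate shuttle were all below 0 on the log2 scale, and 2 were called. Slc25a11 (chromosome 11, 70644196 to 70647479, minus strand), which exchanges oxoglutarate for malate, had 109, 127, 131, 136 and 128 CPM in CPT2H-KO hearts and 169, 171, 189, 168 and 148 CPM in wild type hearts. The groups did not overlap, and Slc25a11 fell by 0.42 on the log2 scale (SE 0.08, adjusted p = 0.00263). Slc25a12 (chromosome 2, 71271063 to 71367749, minus strand) encodes aralar, the aspartate/glutamate carrier of heart, muscle and brain. It had 84.9, 78.2, 87.2, 88.0 and 85.9 CPM in CPT2H-KO hearts, against 105, 97.5, 101, 101 and 98.4 CPM in wild type hearts, and these did not overlap either. Its log2 fold change was -0.24 (SE 0.05, adjusted p = 0.00635), and with the atrial transcripts as a covariate it was -0.22 (adjusted p = 0.0577). Slc25a13 (chromosome 6, 6041218 to 6217173, minus strand) encodes citrin, the aspartate/glutamate carrier best known from liver. It had 39.8, 52.6, 64.7, 62.8 and 57.5 CPM in CPT2H-KO hearts and 59.2, 70.0, 67.9, 61.1 and 60.1 CPM in wild type hearts, with CPT2H-KO replicate 1 lowest. Slc25a13 was not called (-0.20, SE 0.12, adjusted p = 0.226), and its value was -0.10 without CPT2H-KO replicate 1. The ratio of Slc25a12 to Slc25a13 had a median of 1.49 in CPT2H-KO hearts and 1.64 in wild type hearts, and no difference was detected (log2 difference -0.03, exact permutation p = 0.833, adjusted p = 0.926). Of the 7 enzymes of the malate-aspartate and glycerophosphate shuttles, 1 was higher and 2 were lower, against 16.7% and 17% of all genes. Mdh1, the cytosolic malate dehydrogenase gene, was at -0.59 (adjusted p = 3.77e-04). Got2, the mitochondrial aspartate aminotransferase gene, was at -0.22 (adjusted p = 0.0223).

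The promoter sequences of the aspartate/glutamate carrier genes are shown to set this pair, of which Slc25a12 alone passed the test, side by side, together with that of Slc25a5, whose ratio to Slc25a4 differed between the groups. They are the 250 bases before the annotated start, 5′ to 3′ on the gene's strand, from RefSeq on GRCm38.p6, and none of them overlaps an annotated exon. Capitals mark a CACGTG E-box or a CCAAT box on either strand. The windows are chr2:71367756-71368005 (minus strand) for Slc25a12, chr6:6217174-6217423 (minus strand) for Slc25a13 and chrX:36795347-36795596 (plus strand) for Slc25a5.
Slc25a12: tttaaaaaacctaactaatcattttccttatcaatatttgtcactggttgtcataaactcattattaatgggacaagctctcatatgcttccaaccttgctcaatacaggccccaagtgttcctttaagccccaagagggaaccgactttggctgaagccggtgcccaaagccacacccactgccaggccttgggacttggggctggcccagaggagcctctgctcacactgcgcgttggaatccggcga
Slc25a13: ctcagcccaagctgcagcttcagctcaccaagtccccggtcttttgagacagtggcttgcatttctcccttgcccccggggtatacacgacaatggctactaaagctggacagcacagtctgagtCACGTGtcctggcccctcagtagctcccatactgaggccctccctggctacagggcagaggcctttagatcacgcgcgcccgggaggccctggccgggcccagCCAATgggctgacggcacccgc
Slc25a5: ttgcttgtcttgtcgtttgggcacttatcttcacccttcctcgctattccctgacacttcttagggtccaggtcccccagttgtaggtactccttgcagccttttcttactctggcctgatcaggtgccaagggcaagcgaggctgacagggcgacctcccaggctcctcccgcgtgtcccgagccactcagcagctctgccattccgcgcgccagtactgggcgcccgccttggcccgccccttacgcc
The Slc25a13 window held both motifs, and the Slc25a12 and Slc25a5 windows neither. RefSeq windows were matched for 34 members, 44 windows in all. Only 17 of the 44 hold no annotated exon, and the shares below are over all 44. CACGTG stood in 8 of the 44 windows (18.2%), against 6% of the 32807 windows of other genes, and CCAAT in 47.7%, against 33.8%. The windows with CACGTG belong to Slc25a1, Slc25a13, Slc25a14, Slc25a15, Slc25a31, Slc25a33 and Slc25a36, and the Slc25a14 windows overlap each other. None of the 11 windows of carriers called in CPT2H-KO hearts held CACGTG, but at a rate of 6% so few windows can easily hold none. Slc25a22 has several of these windows and Slc25a26 has none. Of these 11, 5 held CCAAT and 1 held CCGGAAG. Searched on both strands, CCGGAAG (an ETS core) stood in 9.09% of member windows and 6.9% of others, the NRF1 core in 4.55% and 3.74%, and TCAAGGTCA (an ERR site) and TGATGNAA (an ATF4 core) in none of the 44, against 0.387% and 3.46% of others. A match describes these letters only.

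Amino acid carriers held the largest changes in both directions. Slc25a22 (chromosome 7, 141429744 to 141437892, minus strand), which brings glutamate into the matrix, had 17.5, 17.7, 33.0, 30.5 and 19.5 CPM in CPT2H-KO hearts, against 12.6, 9.19, 10.8, 12.6 and 10.2 CPM in wild type hearts. Every CPT2H-KO heart was above every wild type heart, and replicates 3 and 4 stood well above the other CPT2H-KO hearts. The log2 fold change of Slc25a22 was 1.09 (SE 0.19, adjusted p = 0.00183), and it ranged from 0.81 to 1.18 over the alternatives. Slc25a29 (chromosome 12, 108825873 to 108835883, minus strand), a carrier of basic amino acids, had 0.79, 1.31, 0.956, 0.963 and 1.13 CPM in CPT2H-KO hearts and 3.58, 3.91, 2.97, 2.11 and 2.12 CPM in wild type hearts. Its groups were far apart, although its counts were low, from 40 to 429 per library. Slc25a29 fell by 1.51 on the log2 scale (SE 0.21, adjusted p = 5.06e-04), with a range of -1.74 to -1.38 over the alternatives. Slc25a38 (chromosome 9, 120110374 to 120124504, plus strand), a glycine carrier needed for heme synthesis, had 2.87, 4.29, 5.21, 4.70 and 4.52 CPM in CPT2H-KO hearts and 7.27, 7.29, 7.87, 6.52 and 5.93 CPM in wild type hearts. It fell by 0.69 (SE 0.14, adjusted p = 0.00402), with no overlap and with replicate 1 the lowest CPT2H-KO heart. The ornithine carrier gene Slc25a15 was not called (-0.13, adjusted p = 0.211), and Slc25a44, which carries branched-chain amino acids, was at 9.84 ± 0.60 CPM in CPT2H-KO hearts and 9.64 ± 0.61 in wild type hearts. Slc25a15 and Slc25a29 can both carry ornithine, and the ratio of their counts was 7.64, 5.88, 6.71, 6.76 and 6.35 in CPT2H-KO hearts, against 2.18, 1.89, 2.54, 3.44 and 3.40 in wild type hearts. All CPT2H-KO hearts were above all wild type hearts (log2 difference 1.34, exact permutation p = 0.00794, adjusted p = 0.0397). This ratio largely restates the fall of Slc25a29, and its adjusted p too depends on the tie with Slc25a4 and Slc25a5.

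Among nucleotide and cofactor carriers 1 was called higher, 1 lower and 8 not. Slc25a42, which takes coenzyme A into mitochondria, had 14.2, 16.6, 29.6, 24.4 and 14.4 CPM in CPT2H-KO hearts, against 15.1, 13.3, 12.3, 11.4 and 11.9 CPM in wild type hearts. CPT2H-KO replicates 3 and 4 were again the highest, and replicates 1 and 5 were below wild type replicate 1. The log2 fold change of Slc25a42 was 0.63 (SE 0.20, adjusted p = 0.0315). That call was lost in 10 of 19 alternatives, and with the atrial covariate the value was 0.26 (adjusted p = 0.427). Without CPT2H-KO replicate 3 or 4 it was 0.44 (adjusted p = 0.0598) and 0.54 (adjusted p = 0.0723), and without wild type replicates 2 to 5 in turn the adjusted p was also above 0.05. Slc25a26, the S-adenosylmethionine carrier, had 4.31, 5.68, 6.37, 6.01 and 5.78 CPM in CPT2H-KO hearts, against 7.66, 6.72, 7.28, 6.68 and 6.49 CPM in wild type hearts. The groups of Slc25a26 did not overlap, and its log2 fold change was -0.31 (SE 0.10, adjusted p = 0.0385), a call lost in 9 of 19 alternatives, among them without CPT2H-KO replicate 2 or 5 and without each of wild type replicates 1 to 4. Slc25a16, whose yeast relative is linked to coenzyme A, had a value of -0.14, the pyrimidine nucleotide carrier gene Slc25a36 of 0.11 and the NAD carrier gene Slc25a51 of 0.07. None of these was called, and the values of Slc25a36 and Slc25a51 were below 0 when scaled by library totals alone. Slc25a17, Slc25a32, Slc25a33 and Slc25a53 lay between -0.04 and 0.09.

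Of the 4 iron and glutathione carriers, Slc25a39, which imports glutathione, was called higher. It had 42.7, 36.2, 39.1, 36.0 and 39.1 CPM in CPT2H-KO hearts, against 33.2, 33.6, 35.6, 31.8 and 29.5 CPM in wild type hearts, with no overlap but with the lowest CPT2H-KO heart close to the highest wild type heart. The log2 fold change of Slc25a39 was 0.24 (SE 0.07, adjusted p = 0.0238), a call lost without wild type replicate 4 (adjusted p = 0.0546). When scaled by library totals alone Slc25a39 was at -0.03 and not called, where the median of all genes was -0.27. Its close relative Slc25a40 was not called (0.16, adjusted p = 0.237), nor were the mitoferrin genes Slc25a37 (0.14, adjusted p = 0.328) and Slc25a28 (-0.14, adjusted p = 0.331). Library totals alone gave Slc25a40 and Slc25a37 negative values too. Neither the dicarboxylate carrier gene Slc25a10 (0.19, adjusted p = 0.0702, negative with library totals) nor the citrate carrier gene Slc25a1 (2.61 ± 0.65 CPM in CPT2H-KO hearts and 2.80 ± 0.92 in wild type hearts) was called. The uncoupling-protein-like genes Slc25a14, Slc25a27 and Slc25a30 lay between -0.12 and -0.10, and none was called.

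Carriers without an assigned substrate gave 1 call. Slc25a47, known mainly from liver, had 0.81, 0.943, 1.04, 0.841 and 0.637 CPM in CPT2H-KO hearts and 1.05, 1.32, 1.15, 1.29 and 1.04 CPM in wild type hearts. The groups barely separated, its counts were from 41 to 200 per library, and its call (-0.46, SE 0.16, adjusted p = 0.0474) was lost in 12 of 19 alternatives, among them without CPT2H-KO replicates 1, 2, 4 and 5 and without wild type replicates 1 to 4, each in turn. Slc25a34 had 64.9, 63.7, 71.9, 69.3 and 68.1 CPM in CPT2H-KO hearts and 82.9, 87.6, 89.7, 65.6 and 61.9 CPM in wild type hearts, where replicates 4 and 5 lay apart from the other 3. It was not called (-0.20, SE 0.11, adjusted p = 0.174). Slc25a35 (-0.56, adjusted p = 0.0754; -0.75 and adjusted p = 0.0190 without CPT2H-KO replicate 3), Slc25a45 (-0.30, adjusted p = 0.276) and Slc25a46, a protein of the outer membrane (0.04, adjusted p = 0.61, negative with library totals), were not called either. Exons of Slc25a35 share 31.3% of their length with Rangrf on the opposite strand and those of Slc25a11 share 8.92% with Rnf167. How the counting treated strand is not stated, so reads of such partners may be mixed.

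**Figure D3:**
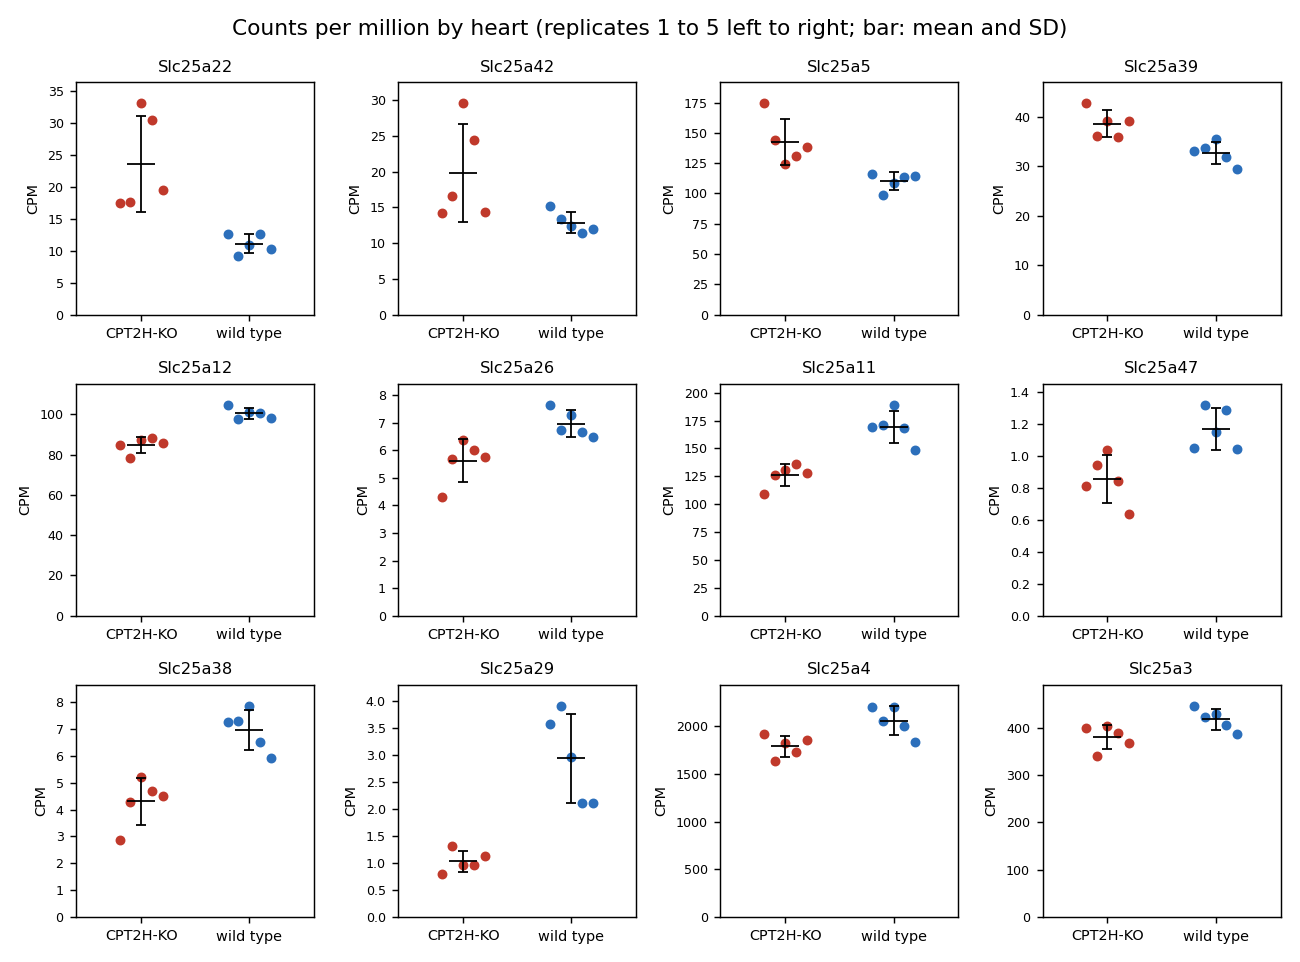
CPM by heart for the 10 carriers called in CPT2H-KO against wild type hearts, and for Slc25a4 and Slc25a3, which were not called. Points are replicates 1 to 5 from left to right in CPT2H-KO hearts and then in wild type hearts, with the mean and SD as bars (n = 5 each). Slc25a22 and Slc25a42 share CPT2H-KO replicates 3 and 4 as their highest hearts. When scaled by library totals alone the log2 fold change of Slc25a39 is -0.03, where the median of all genes is -0.27.

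Replicate spread in the family was modest. The SD over replicates was 11.1% of the mean CPM for the median member in CPT2H-KO hearts and 9.46% in wild type hearts, against 15.5% and 10.4% for the median of all genes. In CPT2H-KO hearts Slc25a35, Slc25a42 and Slc25a45 varied most, with SDs of 36.1, 34.5 and 32.1% of the mean. The same Slc25a42 had an SD of 11.5% of the mean in wild type hearts.

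Related lists of genes gave a measure of the surroundings of these carriers. Over all genes tested, 16.7% were called higher and 17% lower in CPT2H-KO hearts. ATP synthase subunit genes, whose product is fed by the ADP/ATP and phosphate carriers, were lower in 13 of 16 cases and higher in 0 (median -0.37), with Atp5g2 at -0.70 (adjusted p = 4.20e-04) and Atp5k at -0.53 (adjusted p = 8.57e-04). Other inner membrane carriers were higher in 2 of 12 cases and lower in 4 (median -0.19), and the pyruvate carrier genes Mpc2 (-0.47, adjusted p = 0.0052) and Mpc1 (-0.26, adjusted p = 0.0151) were both lower. Family members under other symbols gave 2 higher and 1 lower of 5 tested, with the uncoupling protein gene Ucp3 at 1.37 (adjusted p = 0.00621) and Mtch2 at -0.23 (adjusted p = 0.028). Slc25a20 was not called (0.19, SE 0.09, adjusted p = 0.12). Outer membrane pore genes were lower in 1 of 3 cases, Vdac3 (-0.49, adjusted p = 9.74e-04).

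Marker lists of the cells of the heart were counted in the same way in the first table. The shares over all genes were again 16.7% higher and 17% lower. Cardiomyocyte markers were higher in 1 and lower in 6 of 10 cases, with a summed level of 50981 to 59151 CPM in CPT2H-KO hearts and 56563 to 63730 CPM in wild type hearts. Fibroblast markers were higher in 3 and lower in 1 of 8 cases, with Col1a1 at 1.41 (adjusted p = 0.00138), and summed to 1513 to 2380 CPM in CPT2H-KO hearts and 1255 to 1787 CPM in wild type hearts. Smooth muscle and pericyte markers were lower in 3 of 7 cases, with Acta2 at -1.75 (adjusted p = 7.87e-04), and summed to 376 to 448 CPM in CPT2H-KO hearts and 514 to 597 CPM in wild type hearts. Cell cycle genes were higher in 2 of 10 cases, with Mcm2 at 1.85 (adjusted p = 3.53e-05), and summed to 28.7 to 68.5 CPM in CPT2H-KO hearts and 13.9 to 40.2 CPM in wild type hearts. Of 6 atrial, 8 endothelial, 8 macrophage, 6 red blood cell and 4 brown adipocyte markers tested, 1, 0, 0, 0 and 1 were higher and 0, 1, 0, 0 and 0 lower. Their part in the values of the carriers was not tested beyond the atrial covariate.

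By their labels, double KO and single KO hearts share the loss of CPT2 and differ in USP30. The groups also differ in Y-linked transcripts, at background in every double KO heart but present in single KO replicates 1 and 2. Myl7 was higher in every double KO heart than in any single KO heart. The parts of USP30 loss, sex and atrial tissue cannot be fully told apart, and were not tested beyond the sex and atrial terms. None of the carriers was called: of 45 members, 37 passed the low-count filter and 0 had an edgeR adjusted p under 0.05, against a background of 0% of 12997 genes. Usp30 itself was not called either (log2 fold change -1.16, edgeR adjusted p = 0.147), so a lack of calls does not show a lack of change. At an unadjusted p under 0.05 there were 3 carriers, all higher (8.11% of the 37), against 7.25% of all genes, 4.55% higher and 2.69% lower. DESeq2 called 113 genes and limma-voom 0, with 0 carriers in either. Groups did not overlap for 2 carriers, both higher, 5.41% of the 37, against 11.8% of all genes, 6.69% higher and 5.07% lower. The median of the 37 was -0.01, against 0.00 for all genes, with 12 above 0 and 25 below, where 50.4% of all genes were above and 49.6% below. Removed by the filter were the 7 sparse members above and Slc25a53, with 2 to 8 counts.

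Slc25a1, the citrate carrier that exports citrate for lipid synthesis, had the smallest p. It had 15.8, 10.8 and 21.5 CPM in double KO hearts and 10.8, 9.81 and 8.34 CPM in single KO hearts. Double KO replicate 2 was level with single KO replicate 1 (log2 fold change 0.73, SE 0.25, unadjusted p = 0.0163, adjusted p = 0.522, edgeR). Without double KO replicate 3, the highest of them, the log2 fold change of Slc25a1 was 0.45. Slc25a33, a pyrimidine nucleotide carrier, had 33.9, 35.2 and 31.0 CPM in double KO hearts and 23.6, 26.4 and 27.5 CPM in single KO hearts, with no overlap (0.37, SE 0.13, edgeR adjusted p = 0.548). Slc25a28, mitoferrin 2, an iron importer, had 39.0, 37.1 and 34.5 CPM in double KO hearts and 31.6, 29.4 and 25.3 CPM in single KO hearts. It too showed no overlap (0.36, SE 0.14, edgeR adjusted p = 0.596). Slc25a22 had 111, 165 and 174 CPM in double KO hearts and 108, 131 and 108 CPM in single KO hearts (0.37, SE 0.19, edgeR adjusted p = 0.75). Double KO replicates 2 and 3, which were the highest for Slc25a22, are also the hearts with Myl7 at 102 and 425 CPM, and with the atrial covariate the value of Slc25a22 was -0.13. The part of atrial tissue in these values was not otherwise tested.

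The ranges of the most abundant carriers overlapped between double and single KO hearts. Slc25a4 had 5541, 5678 and 4445 CPM in double KO hearts and 4883, 4602 and 5326 CPM in single KO hearts (0.08, SE 0.17, edgeR adjusted p = 0.961). It made up 64.6% ± 3.78 of the family's summed level per length in double KO hearts and 63.0% ± 1.15 in single KO hearts (SD, n = 3 each). Slc25a5 had 436, 367 and 364 CPM in double KO hearts and 405, 415 and 522 CPM in single KO hearts (-0.20, SE 0.16, edgeR adjusted p = 0.86). Slc25a3 had a log2 fold change of -0.003 (SE 0.15), Slc25a11 of -0.08 (SE 0.15) and Slc25a12 of -0.03 (SE 0.15). The other carriers called in CPT2H-KO hearts had values of -0.25 (Slc25a29), -0.01 (Slc25a38), -0.01 (Slc25a26), -0.0004 (Slc25a39), 0.14 (Slc25a42) and 0.51 (Slc25a47) in double against single KO hearts, and none was called. The difference between the 2 comparisons was not tested.

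**Figure D4:**
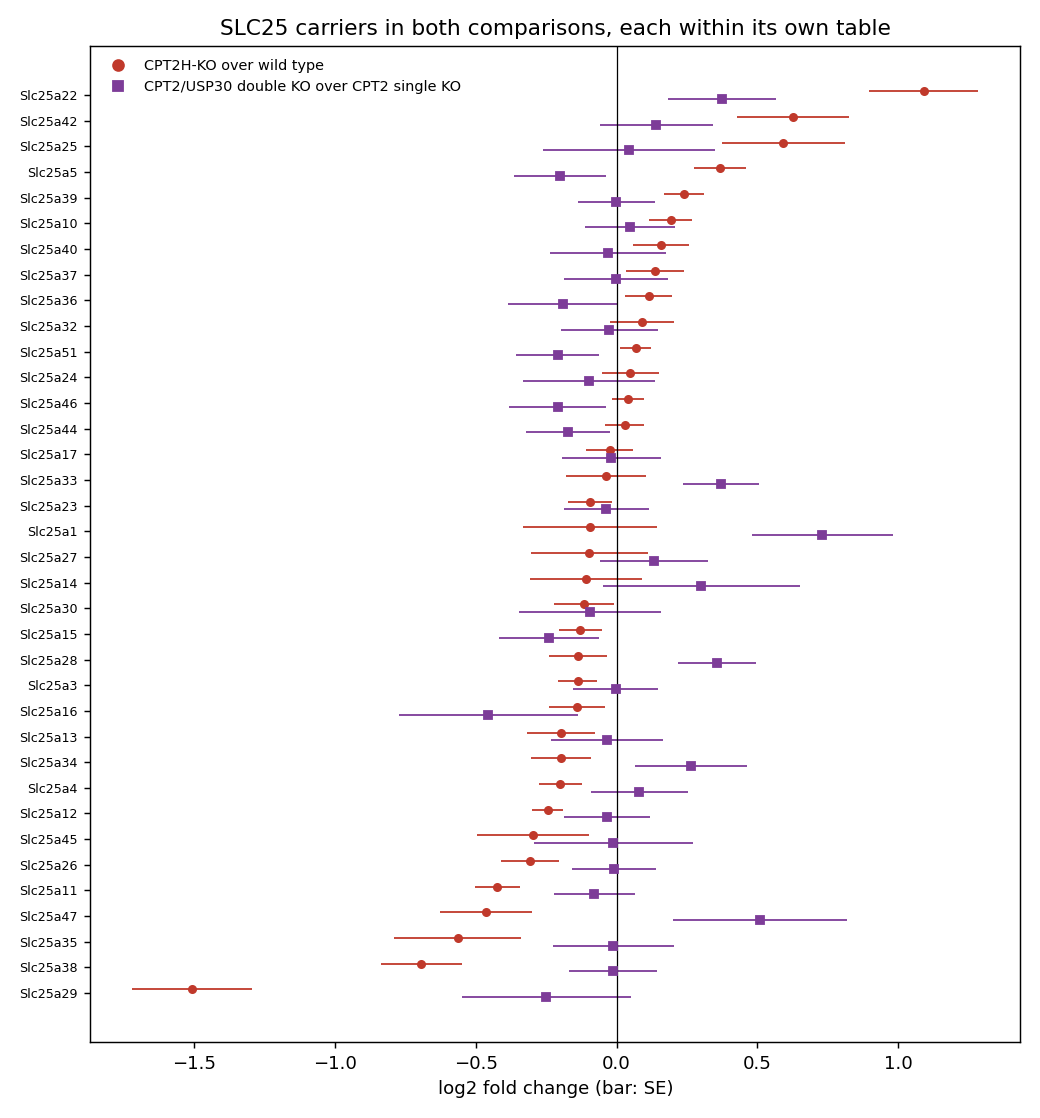
Log2 fold change with SE of 36 of the 37 carriers tested in both comparisons, sorted by the first: CPT2H-KO over wild type hearts (red circles, n = 5 each) and CPT2/USP30 double KO over CPT2 single KO hearts (purple squares, n = 3 each). The libraries of the 2 comparisons are separate. Slc25a29 (-1.51) and Slc25a22 (1.09) mark the ends of the first, and the bars of the second are mostly wider.

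Within-heart ratios in the second table did not pass the threshold, since 3 against 3 cannot give an exact permutation p under 0.1. Of 11 pairs, 4 showed no overlap, each with p = 0.1 and adjusted p = 0.275 by the exact permutation test. The ratio of Slc25a4 to Slc25a5 was 12.7, 15.5 and 12.2 in double KO hearts and 12.0, 11.1 and 10.2 in single KO hearts (log2 difference 0.27). That of Slc25a42 to Slc25a16 was 6.31, 3.81 and 4.73 in double KO hearts and 3.77, 3.40 and 2.32 in single KO hearts (0.65). The ratio of the pyrimidine nucleotide carriers Slc25a36 to Slc25a33 was 0.82 to 1.17 in double KO hearts and 1.26 to 1.84 in single KO hearts (-0.55). That of the mitoferrins Slc25a37 to Slc25a28 was 0.58 to 0.89 in double KO hearts and 0.96 to 1.03 in single KO hearts (-0.39).

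**Figure D5:**
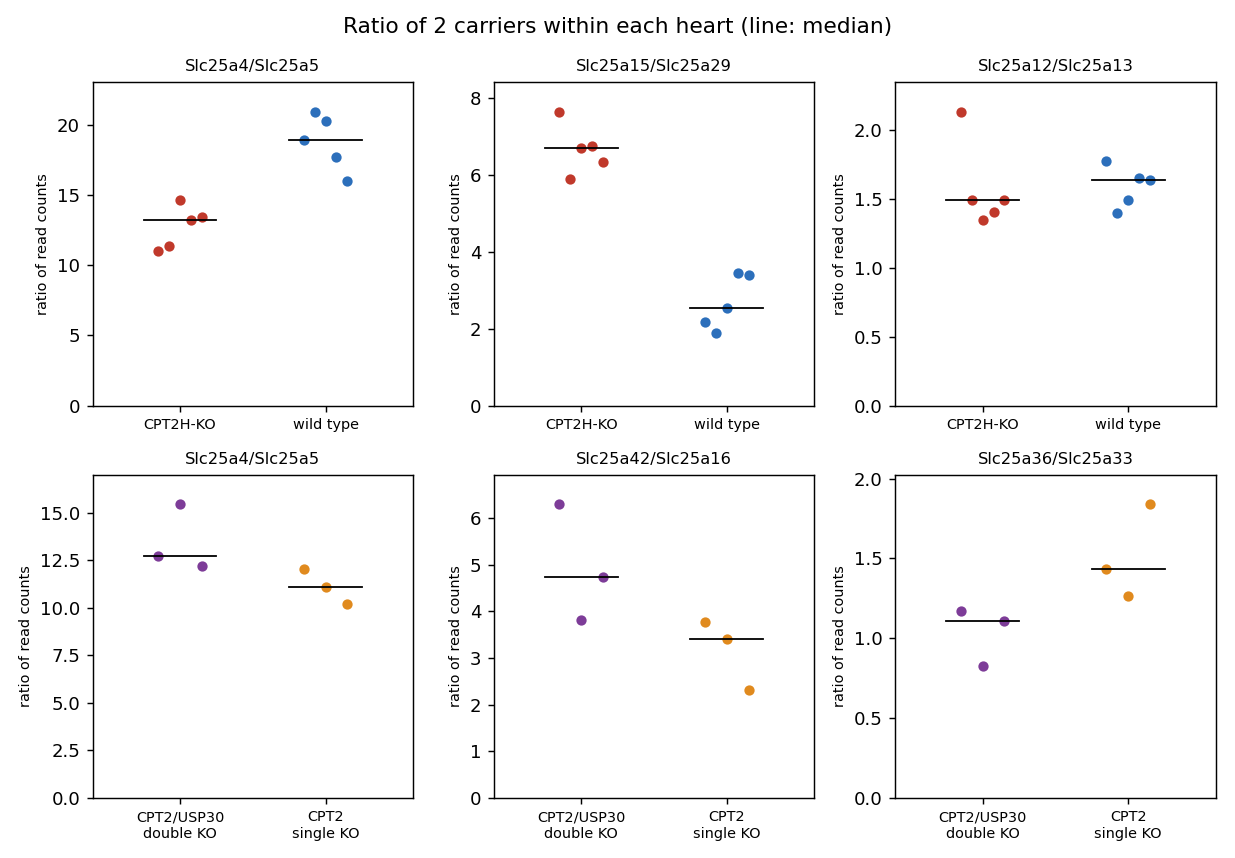
Ratio of the read counts of 2 carriers within each heart, with a point per heart and a line at the median. Upper panels show CPT2H-KO left of wild type hearts (n = 5 each) and lower panels CPT2/USP30 double KO left of CPT2 single KO hearts (n = 3 each). The Slc25a4/Slc25a5 and Slc25a15/Slc25a29 ratios separate CPT2H-KO from wild type hearts completely, while the Slc25a12/Slc25a13 ratios overlap.

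Related lists gave 0 calls in the second comparison as well. The lowest adjusted p over the family under other symbols was that of Ucp3 (0.74, edgeR adjusted p = 0.306). ATP synthase genes had a median of 0.11, with 15 of 17 above 0. Fibroblast markers summed to 5089 to 6588 CPM in double KO hearts and 3561 to 4511 CPM in single KO hearts, and cell cycle genes to 50.4 to 76.9 CPM in double KO hearts and 74.5 to 219 CPM in single KO hearts. Red blood cell markers summed to 4555 to 7763 CPM in double KO hearts and 8129 to 10042 CPM in single KO hearts. Groups did not overlap for 4 of 7 smooth muscle and pericyte markers, all higher, and 3 of 8 endothelial markers, all lower. The share over all genes was 11.8%. The summed levels of these 2 lists overlapped between the groups. Their part in the carriers' values was not tested.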

How the data were processed

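Total RNA was purified on PureLink columns and made into stranded libraries after removal of ribosomal RNA, per the labels' protocols. Per the submitters' processing notes, bcl2fastq, HISAT2, DESeq2 1.42.0 and the build mm10 were used; the sources used here name no counting program, annotation or strand setting. The authors deposited read counts per gene in 2 tables, raw and not normalized, and no value was compared across them. In the second, 1 row without a gene name, with 0% of counts, was left out. No column of per-sample values was left unused.

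Tests used edgeR 4.0.16 in R 4.3.3 (filterByExpr, TMM scaling, quasi-likelihood F test, Benjamini-Hochberg over all genes tested, threshold 0.05). SE is the size of the log2 fold change over the root of F. Levels per length use the merged exons of GENCODE M21 on GRCm38, the mm10 assembly. Ratios added 0.5 to each count for the log2 difference and were compared by exact two-sided permutation over hearts; printed ratios are on the same scale. Alternatives covered scaling, filter, DESeq2 1.42.0, limma-voom (limma 3.58.1), a replicate block, an atrial covariate (Myl7, Myl4, Sln), a sex term and each library left out.

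Per-heart values are given for the 8 members highest per length in the first table, up to 5 called members each way there, Slc25a4 and Slc25a5, and the 4 smallest p in the second comparison; lists give up to 2 genes by p. Other members are given by log2 fold change, adjusted p or range, and 1 carrier and 1 list gene, both included in all tests and counts, are not reported here by name. The members, lists and pairs were chosen with earlier results of these data known. In simulations of the first comparison (CPT2H-KO and wild type, 14121 genes), the test recovered 30.9, 77.3 and 93.9% of genes changed by 0.5, 1 and 2 on the log2 scale. For double against single KO (12905 genes) it recovered 10.4, 55.4 and 92.4%. It also called 6 unchanged genes in the first simulation and 15 in the second. The first simulation changed 68, 66 and 66 genes by these sizes, where the data gave 4758 calls. The cutoff after adjustment depends on how many genes change, so these rates do not give the recovery in the data. Counts were drawn gene by gene, so shifts shared by many genes of a heart, as with sex or atrial tissue, were not simulated. No replicates were duplicates: the lowest chi-square per degree of freedom between any pair was 10.7. The labels call the samples biological replicates, so p-values reflect the spread among them only.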

Additional observations from a re-analysis of the deposited data

Results flagged for a closer look

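Within groups of 5 hearts, 3 carriers had a heart that stood apart from the others by Dixon's criterion, among 38 carriers in each of 2 groups; chance gives about 1 in 20 groups. Slc25a40 was highest in CPT2H-KO replicate 1, at 6.68 CPM, where the next CPT2H-KO heart was at 5.26 CPM. Slc25a46 was highest in CPT2H-KO replicate 5, at 38.5 CPM, where the next was at 35.2 CPM. Slc25a37 was highest in wild type replicate 1, at 8.55 CPM, where the next wild type heart was at 6.63 CPM. None of these carriers was called between CPT2H-KO and wild type hearts.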

How the results depend on the processing

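Library totals as the only scaling gave 1 carrier higher and 15 lower in CPT2H-KO hearts, where the median of all genes becomes -0.27. Among carriers given above with their own value it turned the sign of Slc25a10 (-0.073), Slc25a36 (-0.15), Slc25a37 (-0.13), Slc25a39 (-0.029), Slc25a40 (-0.11), Slc25a46 (-0.22) and Slc25a51 (-0.20), and among the others that of Slc25a24 (-0.22), Slc25a32 (-0.16), Slc25a44 (-0.23) and Slc25a53 (-0.21). Leaving out each heart gave 2 to 5 carriers higher and 4 to 7 lower, and 2 higher without wild type replicate 4. The Slc25a12/Slc25a13 difference ranged from -0.145 to 0.020 without each heart in turn, above 0 without CPT2H-KO replicate 3 or 4 or wild type replicate 1. The count of pairs past the threshold was 0 without each heart in turn. There the smallest exact p passes over 10 pairs only if several pairs share it, so this says nothing of the stability of the pairs that passed.

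Deviations from the group means correlated at -0.09 to 0.23 and -0.21 to 0.17 between same-numbered hearts. Whether the numbers mark litters or batches is not stated, and these correlations cannot settle it. With the replicate block the ratio test left 0 pairs of carriers (smallest p possible 0.0625), the calls of Slc25a26, Slc25a42 and Slc25a47 were lost, and 2061 genes were higher and 2118 lower. No other carrier's call changed with the block. In 4 of 10 and 2 of 6 hearts the best correlation was with the same number.

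In double against single KO hearts every alternative left 0 carriers called. Of the carriers given above with their own value, these turned sign: with the atrial covariate Slc25a22 (-0.13), Slc25a38 (0.19) and Slc25a42 (-0.47); with the sex term Slc25a4 (-0.029), Slc25a29 (0.15), Slc25a38 (0.11) and Slc25a39 (0.14); with limma-voom Slc25a26 (0.0019) and Slc25a39 (0.0037); with the replicate block Slc25a39 (0.0027). Leaving out a heart gave ranges of -0.061 to 0.053 for Slc25a3, -0.12 to 0.055 for Slc25a12, -0.11 to 0.075 for Slc25a26, -0.080 to 0.084 for Slc25a38, -0.079 to 0.034 for Slc25a39 and -0.036 to 0.34 for Slc25a42. The cause of these shifts was not tested. Depth in the second table (at most 13532716 counts per library) limits what can be seen of the 8 sparse carriers. The alternative without mitochondrially encoded genes was not run there, since none of the genes it would remove is listed.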
